A study of Drosophila melanogaster with 20 samples.

Results

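Peptidoglycan recognition protein genes were followed in heads of male Drosophila melanogaster at 2 ages and in 2 genotypes. Members were all rows whose gene symbol starts with PGRP-, which gave 9 of the 9831 genes in the table, and all 9 passed the filter on low values. A reference gene list names 13 PGRP genes, and PGRP-LD, PGRP-SB2, PGRP-SC1a and PGRP-SC1b were not analysed here. Of the 20 libraries, 5 came from wild type at 7 days of age and 6 from chm/+ at that age, here called young. At midlife, 22 to 23 days, there were 4 wild-type and 5 chm/+ libraries. chm encodes chameau, a histone acetyltransferase of the MYST family, and chm/+ flies carry 1 mutant and 1 normal copy. The labels give neither the chm allele nor the strain background, so both remain unknown for all 4 groups. Each library was made from polyadenylated RNA of 25 to 30 pooled male heads, the males having been kept with females. A head pool mixes brain, eye, fat body, haemocytes and cuticle, and flies within a pool cannot be told apart.

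Peptidoglycan is the cell wall polymer of bacteria, and PGRP proteins bind it. In Drosophila some of them start innate immune signalling, either through the Toll pathway, which mainly answers bacteria with lysine-type peptidoglycan, or through the Imd pathway, which answers diaminopimelic acid-type peptidoglycan. Others are amidases that cut peptidoglycan into pieces with little signalling activity, or membrane proteins that tune Imd signalling. Both pathways end in NF-kappaB factors that raise antimicrobial peptide genes, largely in fat body, and several PGRP genes are themselves targets of these pathways.

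The 9 genes fall into 4 roles. PGRP-SA (FBgn0030310, X) and PGRP-SD (FBgn0035806, 3L) are secreted and take part in recognition for the Toll pathway, with PGRP-SD also described upstream of Imd. PGRP-LC (FBgn0035976, 3L), a membrane receptor, and PGRP-LE (FBgn0030695, X), an intracellular and secreted sensor, act in recognition for Imd. PGRP-LA (FBgn0035975, 3L) and PGRP-LF (FBgn0035977, 3L) are membrane proteins that regulate Imd signalling, and PGRP-LF is an inhibitor of PGRP-LC. PGRP-LB (FBgn0037906, 3R), PGRP-SB1 (FBgn0043578, 3L) and PGRP-SC2 (FBgn0043575, 2R) encode secreted amidases. The arms are those of the deposited table.

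Levels are normalized counts, scaled by the authors to one library size, and columns summed to between 27572012 and 30470376. Depth cannot be read from them. Precision therefore rests on the spread between libraries, which may be partly technical because the sources do not say that libraries came from separate cultures. The level of chm itself, the check on genotype, was 615 ± 36.6 (SD, n = 5) in young and 613 ± 46.3 (n = 4) in midlife wild type, against 321 ± 24.6 (n = 6) and 336 ± 22.0 (n = 5) in chm/+. All 4 groups occur both among the first 10 columns (first column set) and among the last 10 (second column set), and the labels name no batch. The midlife chm/+ library CHMo12 stood apart from the others: it was the lowest of its group for 8 of the 9 PGRP genes. The young wild-type library 2uy3 was the highest of its group for 5 of them, and so was the midlife wild-type library 2uo5. Summed levels of the 16 antimicrobial peptide genes measured placed these libraries the same way. CHMo12 was lowest of midlife chm/+ at 48178, where the highest was 248493. 2uy3 was highest of young wild type at 58922, where the lowest was 6523, and 2uo5 highest of midlife wild type at 126570, where the lowest was 46372.5.

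With age, 6 of the 9 PGRP genes rose in wild type and 7 of 9 rose in chm/+, and 0 fell in either genotype. Called means an adjusted p under 0.05 in limma with Benjamini-Hochberg adjustment over all 9831 genes. Over all genes 12.4% were called higher and 11.3% lower at midlife in wild type, and 8.63% higher and 7.36% lower in chm/+. The median log2 change of the PGRP genes was 0.75 in wild type and 0.87 in chm/+, beside -0.02 and -0.01 over all genes. Genes called in both genotypes were PGRP-SA, PGRP-SD, PGRP-LC, PGRP-LF, PGRP-SB1 and PGRP-SC2. In pooled heads, more cells that express a gene and more RNA per cell cannot be told apart.

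**Figure D1:**
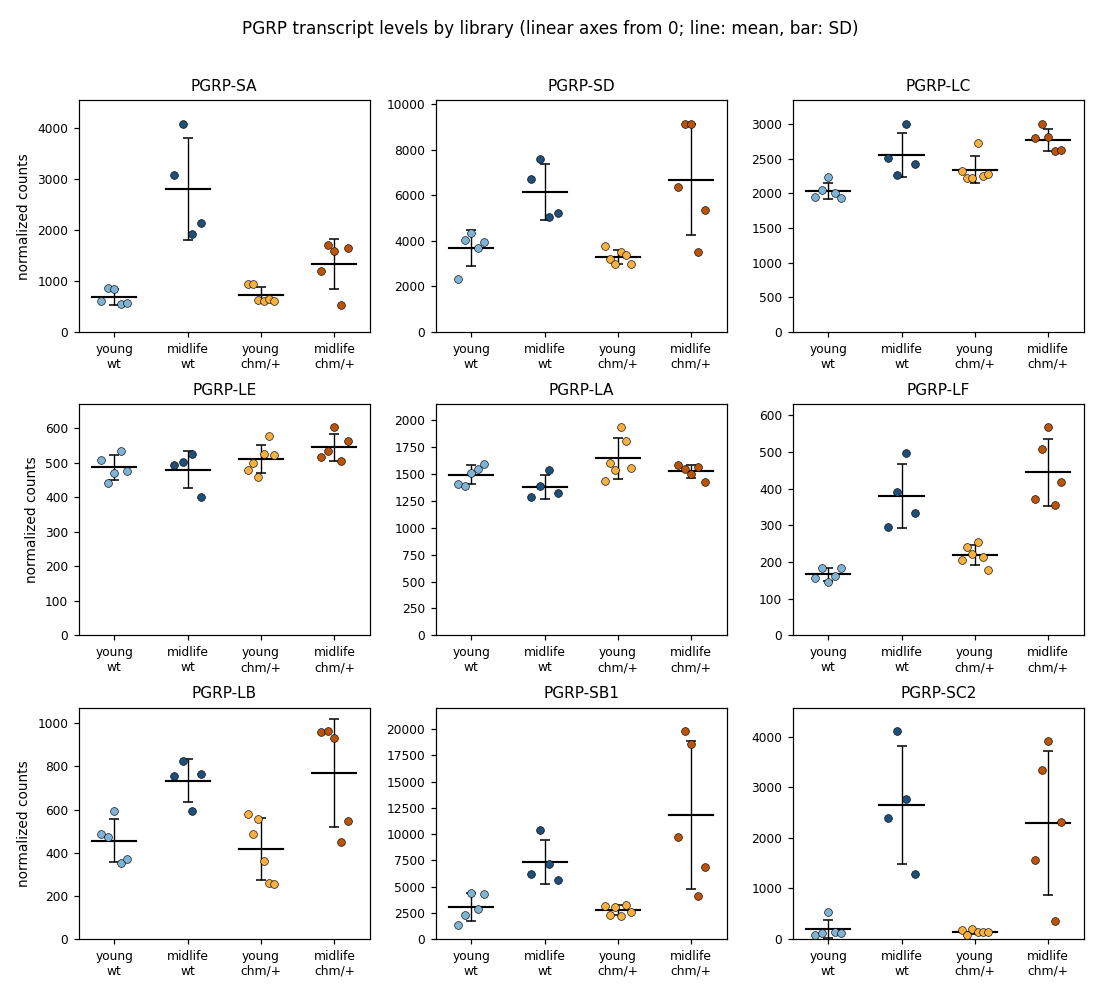
Level of each PGRP gene in normalized counts (vertical axes, linear from 0) in all 20 libraries, 1 panel per gene. Points are libraries, horizontal lines group means and bars the SD. PGRP-SC2 at midlife runs from 350 to 4116, while PGRP-LE and PGRP-LA overlap between all 4 groups.

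Of the Toll recognition genes, PGRP-SA had the larger change in wild type (1.98 against 0.75 for PGRP-SD on the log2 scale), while in chm/+ PGRP-SD was at 0.93 and PGRP-SA at 0.78. These differences between genes were not tested. In young wild type it stood at 608, 859.7, 845, 539.8 and 565 in libraries 2uy1 to 2uy5. In midlife wild type it stood at 1917 in 2uo1, 2137 in 2uo2, 3086 in 2uo4 and 4089.8 in 2uo5. All 4 midlife libraries lay above all 5 young ones, with means of 2807 ± 994 (SD, n = 4) and 683 ± 156 (SD, n = 5). The log2 change was 1.98 (SE 0.29, limma adjusted p = 6.68e-05), with 2.20 within the first column set and 1.85 within the second.

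In young chm/+ PGRP-SA ran from 604 through a median of 633 to 942 (n = 6). In midlife chm/+ it stood at 1199.8 in CHMo2, 1707 in CHMo3, 1649 in CHMo5, 1591 in CHMo11 and 524 in CHMo12. CHMo12 lay below every young chm/+ library, and the other 4 lay above all of them. The log2 change with age was 0.78 (SE 0.26, limma adjusted p = 0.0496). This call was lost in 24 of the 38 alternative settings, with a replicate block at 0.57 (adjusted p = 0.154) and at adjusted p values up to 0.227, so PGRP-SA in chm/+ lies at the threshold. Without CHMo12 the change was 1.08 (adjusted p = 0.000982). Of the libraries left out in turn, the call was kept without CHMo12, CHMy2, CHMy3, 2uo1 or 2uo5 and lost without any other, at 0.66 to 0.79.

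PGRP-SD rose in both genotypes from a high starting level. In young wild type it stood at 2306, 4042, 4339.8, 3690.1 and 3959.6 in 2uy1 to 2uy5, and in midlife wild type at 5038, 5214, 6707 and 7591 in 2uo1, 2uo2, 2uo4 and 2uo5. The wild-type groups did not overlap, and the log2 change was 0.75 (SE 0.23, limma adjusted p = 0.0223). Without 2uo4, 2uo5 or 2uy1 it was 0.59 to 0.70 and not called, at adjusted p values of 0.0584 to 0.0892. It was 1.05 in the first column set and 0.42 in the second, where it was not called (adjusted p = 0.471).

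In chm/+ the young libraries of PGRP-SD ran from 2961 through 3279.6 at the median to 3788. The midlife libraries stood at 6339 in CHMo2, 9125 in CHMo3, 5328 in CHMo5, 9137 in CHMo11 and 3493 in CHMo12. CHMo12 lay within the range of the young libraries and the other 4 lay above it. The log2 change was 0.93 (SE 0.21, limma adjusted p = 0.00381), and 1.15 without CHMo12. In the reference annotation exons of PGRP-SD overlap those of CG7492 on the opposite strand. The strandedness of the kit is not stated, so reads from the overlap could not be assigned to either gene, and CG7492 itself was at -0.08 (adjusted p = 0.496) with age in wild type.

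The Imd recognition genes moved little. PGRP-LC in young wild type stood at 1944, 2046, 2233, 2002 and 1936 in 2uy1 to 2uy5, and in midlife wild type at 3004, 2427, 2509 and 2261 in 2uo1, 2uo2, 2uo4 and 2uo5. The groups did not overlap, though 2uo5 lay close to 2uy3. Midlife was higher by a log2 change of 0.32 (SE 0.08, limma adjusted p = 0.00724). Within the first column set alone it was 0.20 (adjusted p = 0.079) and within the second 0.45 (adjusted p = 0.0929), and it was called in neither.

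In chm/+ the young libraries of PGRP-LC ran from 2220.2 through 2263 to 2728, the highest being CHMy1. At midlife the values were 2795 in CHMo2, 3003 in CHMo3, 2627 in CHMo5, 2808 in CHMo11 and 2606 in CHMo12. CHMy1 lay above 2 of these libraries, and the remaining young libraries lay below all 5. With age PGRP-LC changed by 0.25 on the log2 scale (SE 0.07, limma adjusted p = 0.0268), and with a replicate block it was 0.30 (adjusted p = 0.057). It was not called without CHMo2, CHMo3, CHMo11, CHMy3 or CHMy4, at adjusted p values of 0.0542 to 0.0806.

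PGRP-LE was not called in any comparison. Its group means were 486 ± 35.6 (SD, n = 5) in young wild type, 479.9 ± 54.5 (n = 4) in midlife wild type, 510.1 ± 41.6 (n = 6) in young chm/+ and 544 ± 39.0 (n = 5) in midlife chm/+. Over all 20 libraries it ran from 401 to 602. The change with age had a 95% interval of -0.20 to 0.15 on the log2 scale in wild type and -0.07 to 0.25 in chm/+.

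The membrane regulators differed from each other. PGRP-LF, the inhibitor of PGRP-LC, had the lowest mean level per kilobase of the family in young flies. Young wild-type libraries stood at 157, 184, 145, 162 and 185 in 2uy1 to 2uy5. In midlife wild type it stood at 498 in 2uo1, 334 in 2uo2, 296 in 2uo4 and 392 in 2uo5, so all 4 midlife libraries lay above all 5 young ones. PGRP-LF rose by 1.10 on the log2 scale (SE 0.15, limma adjusted p = 2.07e-05).

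PGRP-LF rose by a like amount in chm/+. Young libraries ran from 179 through 217 to 255, and the midlife libraries stood at 373 in CHMo2, 509 in CHMo3, 419.8 in CHMo5, 568 in CHMo11 and 355 in CHMo12. The groups did not overlap even with CHMo12, which was at 0.759 of the mean of the other 4. Its log2 change was 0.96 (SE 0.13, limma adjusted p = 4.75e-05). Its exons overlap those of UGP on the opposite strand in the reference annotation, with the same limit on strand. UGP was not called with age, at 0.25 (adjusted p = 0.474) in wild type and -0.17 (adjusted p = 0.668) in chm/+.

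PGRP-LA was not called with age. Its means were 1489.7 ± 87.7 (SD, n = 5) and 1379 ± 110 (n = 4) in young and midlife wild type, and 1641 ± 187 (n = 6) and 1523 ± 62.4 (n = 5) in young and midlife chm/+. The 95% interval of its change with age was -0.28 to 0.06 in wild type and -0.25 to 0.05 in chm/+, on the log2 scale. PGRP-LA, PGRP-LC and PGRP-LF are next to each other on the same strand of 3L. From one gene to the next in this run the log2 change with age in wild type was -0.11, 0.32 and 1.10, so adjacent genes did not share the size of their change.

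**Figure D2:**
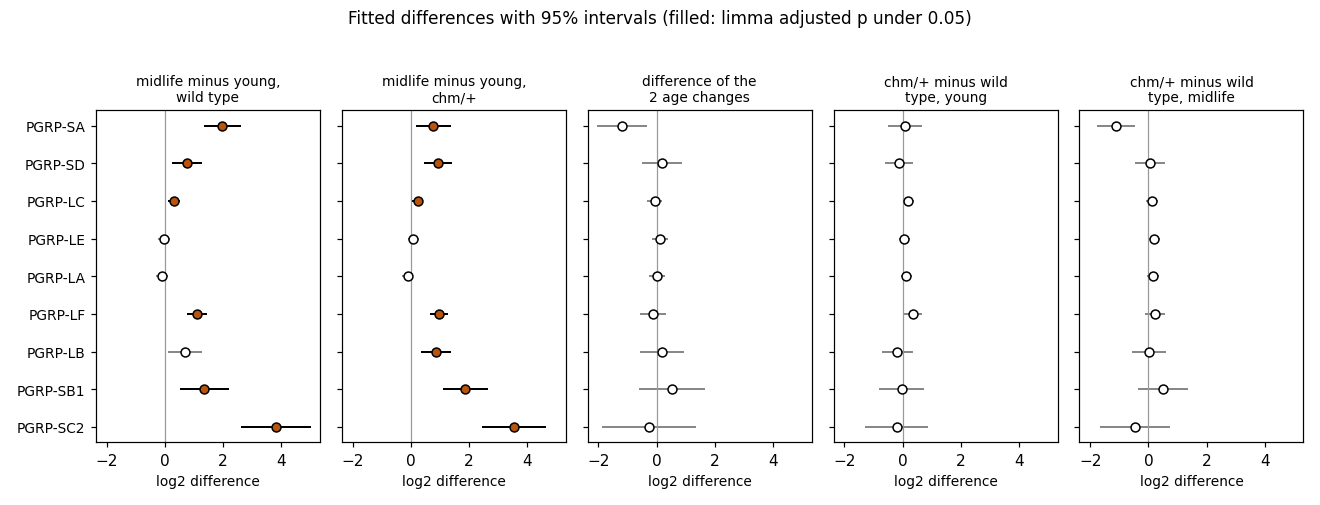
Log2 difference of each PGRP gene (horizontal axes) with its 95% interval in 5 comparisons, from limma over 9831 genes. Filled points were called at an adjusted p under 0.05. PGRP-SC2 has the largest change with age in both genotypes, at 3.81 and 3.55, and no point is filled in the 3 comparisons that involve genotype.

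Among the amidases, PGRP-SC2 had the largest change of the 9 genes in both genotypes. Young wild-type libraries stood at 89.3, 117, 528, 138 and 128 in 2uy1 to 2uy5. In midlife wild type it stood at 2765 in 2uo1, 1288 in 2uo2, 2395 in 2uo4 and 4116 in 2uo5. All midlife libraries lay above all young ones, although 2uy3 lay well above the other 4 young libraries. PGRP-SC2 rose by 3.81 on the log2 scale (SE 0.56, limma adjusted p = 6.17e-05), and 4.22 without 2uy3. The ratio of the group means was 13.2, and 22.4 without 2uy3.

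In chm/+ PGRP-SC2 ran from 75.9 through 138 to 189 in the 6 young libraries. At midlife it stood at 1554 in CHMo2, 3332 in CHMo3, 2319 in CHMo5, 3911 in CHMo11 and 350.1 in CHMo12. CHMo12, at 0.126 of the mean of the other 4, still lay above every young chm/+ library. Its log2 change was 3.55 (SE 0.50, limma adjusted p = 6.88e-05), and 4.12 without CHMo12. PGRP-SC2 has near relatives in PGRP-SC1a and PGRP-SC1b, and how the authors counted reads that match several of them is not given in the sources used here, so its level is uncertain to that extent.

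PGRP-SB1 was among the most abundant of the family and varied widely within groups. Its young wild-type levels were 1306, 2313, 4387, 2861 and 4279 in 2uy1 to 2uy5, and in midlife wild type at 7176, 5607, 6150 and 10356 in 2uo1, 2uo2, 2uo4 and 2uo5. The groups did not overlap, and the log2 change was 1.36 (SE 0.39, limma adjusted p = 0.0161). Without 2uo5 it was 1.18 (adjusted p = 0.0673) and without 2uy1 it was 1.09 (adjusted p = 0.0503). Within the first column set alone the change was 1.75 (adjusted p = 0.0145). Within the second it was 0.86 and not called (adjusted p = 0.370).

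In chm/+ the young libraries of PGRP-SB1 ran from 2210.1 through 2789 to 3228. At midlife it stood at 9704 in CHMo2, 19829 in CHMo3, 6863 in CHMo5, 18540.2 in CHMo11 and 4056 in CHMo12, all above the young libraries. CHMo3 and CHMo11 were the highest and CHMo12 was at 0.295 of the mean of the other 4. PGRP-SB1 rose by 1.88 on the log2 scale (SE 0.35, limma adjusted p = 0.000985), and 2.20 without CHMo12.

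PGRP-LB, an amidase that dampens Imd signalling, had a higher mean in the first column set than in the second in every group. The same held for PGRP-SA and PGRP-SC2, and the difference between column sets was not tested. For PGRP-SC2 in young wild type it rested on 2uy3: 2uy1 and 2uy2 of the first set (89.3 and 117) lay below 2uy4 and 2uy5 (138 and 128). In midlife chm/+ the second set holds CHMo12, the lowest library for both genes (524 for PGRP-SA and 350.1 for PGRP-SC2). PGRP-LB in young wild type stood at 489, 474, 595, 350.4 and 372 in 2uy1 to 2uy5, and at midlife at 592, 764, 756 and 826 in 2uo1, 2uo2, 2uo4 and 2uo5. Only 2uo1 and 2uy3 overlapped. The log2 change was 0.69 (SE 0.26, 95% interval 0.14 to 1.23) and missed the threshold (limma adjusted p = 0.0647).

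In chm/+ the young libraries of PGRP-LB averaged 541 in the first column set and 292 in the second, and the midlife libraries 963 and 643. The log2 change was 0.87 (SE 0.24, limma adjusted p = 0.0146), at 0.82 and 1.05 within the sets. With the column set as a term PGRP-LB was also called in wild type, at 0.74 (adjusted p = 0.00239). It was called there in 8 of the 38 settings, including those without 2uy3 (adjusted p = 0.0494) or without CHMo12 (adjusted p = 0.0442), and the within-set changes in wild type were 0.60 and 0.87.

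By groups that do not overlap, 6 of the 9 genes were higher at midlife in every wild-type library (PGRP-SA, PGRP-SD, PGRP-LC, PGRP-LF, PGRP-SB1 and PGRP-SC2), against 10.9% of all genes. In chm/+ these were PGRP-LF, PGRP-SB1 and PGRP-SC2, 3 of the 9, against 4.59% of all genes. Of the 13 calls of PGRP genes with age, 5 were kept in all 38 alternative settings: PGRP-LF and PGRP-SC2 in both genotypes and PGRP-SA in wild type.

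**Figure D3:**
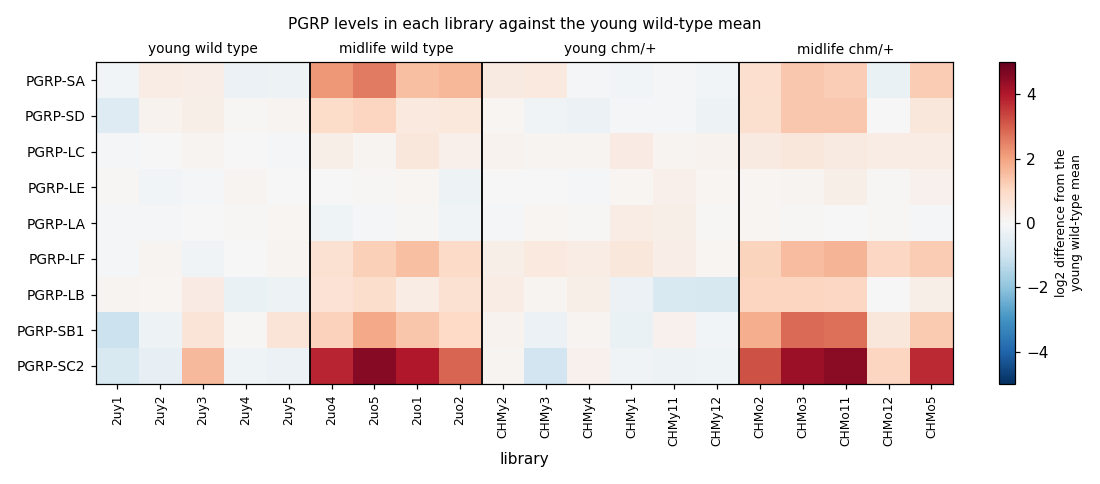
Log2 difference of each library (columns) from the young wild-type mean for each PGRP gene (rows). All 9 midlife libraries lie above the young wild-type mean for PGRP-SC2, PGRP-SB1 and PGRP-LF, and all but CHMo12 (-0.04) do so for PGRP-SD; CHMo12 is at 1.07 for PGRP-SC2 where 2uo5 is at 4.57.

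Whether the change with age differed between genotypes was tested directly. Of the 9 PGRP genes 0 were called in the difference of age changes, where limma called 0.356% of all genes. At an unadjusted p under 0.05 there were 655 genes, 1 of them a PGRP gene, PGRP-SA. Its change was smaller in chm/+ by a log2 difference of -1.20 (SE 0.39, 95% interval -2.02 to -0.38, limma adjusted p = 0.411). Without CHMo12 this was -0.90 (adjusted p = 0.531), and it was negative in all 38 settings without being called in one. For PGRP-SC2 the interval of the difference ran from -1.83 to 1.31 and for PGRP-SB1 from -0.58 to 1.63. For PGRP-LB it ran from -0.55 to 0.92 and for PGRP-SD from -0.47 to 0.83. Differences within those ranges are compatible with the data. The intervals were narrower for PGRP-LF, from -0.55 to 0.27, and for PGRP-LC, from -0.30 to 0.15.

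Between genotypes at midlife, limma called 0 of the 9 PGRP genes, against 1.95% of all genes, with 1304 genes and 2 PGRP genes at an unadjusted p under 0.05. PGRP-SA was one of them: all 5 midlife chm/+ libraries, the highest at 1707, lay below all 4 wild-type ones, the lowest at 1917. Such a pattern, with chm/+ lower, was seen in 2.39% of all genes. The log2 difference was -1.11 (SE 0.29, 95% interval -1.72 to -0.50, limma adjusted p = 0.0555). It was called in 9 of 37 settings, with the column set as a term at -1.07 (adjusted p = 0.0158), and not called without CHMo12, at -0.81 (adjusted p = 0.0960). Without CHMo3, CHMo5 or 2uo1 it was called, at -1.22 to -1.27. The other was PGRP-LE, at 0.18 (SE 0.08, limma adjusted p = 0.370).

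In young flies limma called 0 of the 9 PGRP genes between genotypes, against 1.45% of all genes, with 1506 genes and 2 PGRP genes at an unadjusted p under 0.05. These were PGRP-LC, at 0.20 (SE 0.07, limma adjusted p = 0.205), and PGRP-LF, at 0.36 (SE 0.13, limma adjusted p = 0.192), both higher in chm/+. For PGRP-SA the interval of the difference in young flies was -0.47 to 0.64, and for PGRP-SC2 it was -1.26 to 0.85.

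Levels were compared between genes only as normalized counts per kilobase of the exons joined from the reference annotation, in which lengths ran from 623 bases for PGRP-SB1 to 3743 for PGRP-LC. In young wild type PGRP-SD (5087 ± 1103, SD, n = 5) and PGRP-SB1 (4862 ± 2111) had the highest levels per kilobase and overlapped. PGRP-LA at 710.4, PGRP-SA at 671 and PGRP-LC at 543 followed, each overlapping its neighbour in the order. PGRP-SC2 at 268, PGRP-LB at 257 and PGRP-LE at 235 came next, and PGRP-LF at 123 lay below PGRP-LE without overlap. The place of PGRP-SC2 rests on 2uy3: without that library its mean was 158 per kilobase, below PGRP-LB and PGRP-LE, which were both at 237.

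The order per kilobase changed at midlife. In midlife wild type PGRP-SB1 (11753 ± 3410.0, SD, n = 4) and PGRP-SD (8513 ± 1698) still overlapped at the top. PGRP-SC2 at 3540.3 and PGRP-SA at 2758 now lay above PGRP-LC at 681 and PGRP-LA at 658 without overlap between PGRP-SA and PGRP-LC. PGRP-LB at 414, PGRP-LF at 280.4 and PGRP-LE at 231 were the lowest, with neighbours overlapping. In midlife chm/+ PGRP-SB1 stood at 18938 ± 11311 (SD, n = 5), and the order of means was the same. Neighbours among the first 6 genes all overlapped there, PGRP-SD with PGRP-SC2 (3074) and PGRP-SA (1310.4) with PGRP-LC included.

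**Figure D4:**
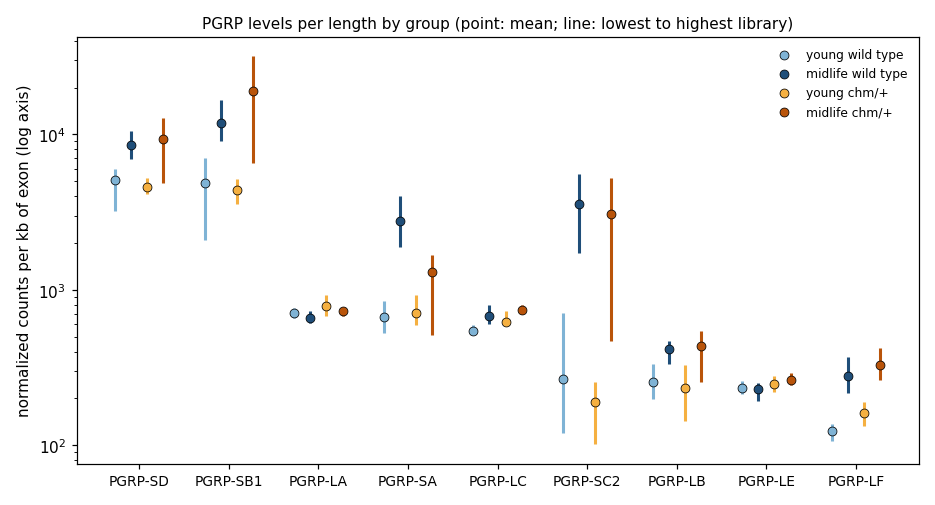
Normalized counts per kilobase of exon (log axis) of each PGRP gene in the 4 groups; points are group means and lines run from the lowest to the highest library. PGRP-SC2 moves from 268 in young to 3540.3 in midlife wild type, and PGRP-LE stays at 235 and 231.

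Libraries of the same group varied together for some of the genes. With group means removed, Pearson's r over the 20 libraries was 0.889 between PGRP-SD and PGRP-SB1, 0.804 between PGRP-SC2 and PGRP-SB1, 0.767 between PGRP-SD and PGRP-SC2, 0.737 between PGRP-SA and PGRP-SD and 0.696 between PGRP-SA and PGRP-SC2. PGRP-LE and PGRP-SA were at 0.0909, and PGRP-LA and PGRP-SC2 at -0.01. These values are descriptions, the libraries share their scaling, and CHMo12 and 2uy3 enter all of them.

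Outside the family, the genes whose log2 values over the 20 libraries were most like a PGRP gene were named by the highest Pearson's r, which includes the difference between ages. For PGRP-SA they were CG4199 (r = 0.976), Grp (0.972), Mec2 (0.969), CG3505 (0.965) and CG15347 (0.964). For PGRP-SC2 they were CG34054 (0.981), CG5527 (0.969), CG13641 (0.966), the serpin gene Spn88Eb (0.956) and CG18563 (0.956). With group means removed, CG34054 stayed the most like PGRP-SC2 at 0.888, and CG10157 was the most like PGRP-SA at 0.945.

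For PGRP-SB1 the first 3 were genes of antimicrobial peptides, Dro (drosocin, 0.949), Mtk (metchnikowin, 0.944) and AttC (an attacin, 0.934). PGRP-SD was most like fon (0.945), a clotting protein gene, and CG5527 (0.938). PGRP-LF was most like lama (0.948) and CG42514 (0.942), followed by pirk (0.937), an inhibitor of Imd signalling that acts on PGRP-LC. PGRP-LC was most like CG4757 (0.884). Once group means were removed, CG5885 (0.869) was the most like PGRP-SB1, fon (0.939) PGRP-SD, CG6550 (0.753) PGRP-LF and Ilp3 (0.760) PGRP-LC. Dro (0.840) and Mtk (0.834) then stayed among the first 5 for PGRP-SB1, and AttC did not. For PGRP-LF, pirk was not among the first 5 either.

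The pathways into which these proteins feed were read from lists without PGRP genes, and their counts stand beside the 12.4% of all genes called higher in wild type and 8.63% in chm/+. Of 23 measured Toll pathway genes 13 rose and 2 fell with age in wild type (median log2 change 0.35), and 7 rose and 1 fell in chm/+ (median 0.11). Without 2uo5 the number raised in wild type was 8. In chm/+ it was 2 with a replicate block, and 4 without any one of 2uo4, CHMo3, CHMo5, CHMo11, CHMy1, CHMy4, CHMy11 or CHMy12. The protease homologue gene spheroide rose by 4.54 (SE 0.41, limma adjusted p = 2.10e-07) in wild type and by 1.81 (SE 0.37, adjusted p = 0.00185) in chm/+. The difference of its age changes, chm/+ minus wild type, was -2.73 (adjusted p = 0.0286). This was the single Toll gene called there, and 13 of 38 settings called none lower: an addend of 0.1 CPM, the second column set alone, the replicate block, and those without 2uo2, 2uo4, 2uo5, 2uy3, 2uy4, 2uy5, CHMo2, CHMo11, CHMy4 or CHMy12. The adaptor Myd88 rose by 0.47 (adjusted p = 0.000336) and the NF-kappaB factor gene dl by 0.39 (adjusted p = 0.00144) in wild type.

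Of 20 measured Imd pathway genes 6 rose and 0 fell with age in wild type (median 0.06), and 3 rose and 0 fell in chm/+ (median 0.04), the latter near the share over all genes. In wild type 2 rose without 2uo5 and 3 without 2uy1 or 2uy2. Rel, the NF-kappaB factor of the Imd pathway, rose by 0.85 (adjusted p = 0.000172) in wild type and 0.78 (adjusted p = 0.000241) in chm/+. pirk rose by 0.85 (adjusted p = 5.81e-05) and 1.01 (adjusted p = 3.71e-06), and key, a kinase complex subunit, by 0.24 (adjusted p = 0.0155) in wild type. Of 16 measured antimicrobial peptide genes 12 rose in wild type (median 2.91) and 14 rose in chm/+ (median 3.74). Without 2uo5 or 2uy1, 7 of them rose in wild type. AttC rose by 3.37 and 4.55, Dro by 3.13 and 4.43 and AttD by 2.53 and 2.52 in wild type and chm/+. All adjusted p values given for pathway genes are from limma over all genes tested.

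Markers of cell types that a head pool can hold were read beside these changes. The shares of all genes called higher and lower with age were 12.4% and 11.3% in wild type and 8.63% and 7.36% in chm/+. The list of neuron and photoreceptor markers also holds a glial marker. It was measured for 10 of 10 symbols, with 2 lower at midlife in wild type (nSyb at -0.42 and Syt1 at -0.55) and 0 called in chm/+. Of 10 measured haemocyte markers 4 rose with age in wild type, among them NimC1 (1.85) and Hml (1.26), and their summed level ran from 15746 to 20132 in young and 23916 to 27398 in midlife wild type. In chm/+ 0 haemocyte markers were called higher and 3 lower, with sums of 18384 to 27870 in young and 19121 to 26702 at midlife. Called or not, 7 of the 10 had a positive log2 change in wild type (median 0.34) and 7 in chm/+ (median 0.15). Of 8 measured fat body markers 0 were called in wild type and 1 fell in chm/+ (Lsp2, -1.39). In chm/+ 6 of the 8 had a positive log2 change (median 0.14), and in wild type 4 did (median 0.13). Their summed level ran from 303449 to 605621 in young and 244257 to 457765 in midlife wild type. In chm/+ it ran from 421078 to 858955 in young and 330907 to 604179 at midlife.

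Of 18 gut symbols 5 had a row. Of these, 2 were called higher with age in wild type and 3 in chm/+, and 0 lower in either. Called or not, 5 had a positive log2 change in wild type and 4 in chm/+. The amylase genes Amy-p (1.29 and 1.33) and Amy-d (1.32 and 1.34), near-identical copies whose reads may be shared, rose in wild type and chm/+. The summed gut list ran from 17754 to 24258 in young and 42212 to 59313 in midlife wild type, and from 10757 to 32884 and 34481 to 61500.0 in chm/+. Of 10 accessory gland and testis symbols 1 had a row, betaTub85D. This gene was called higher with age in chm/+ (log2 change 0.44) and not called in wild type (-0.06). Its level in chm/+ was low, with a lowest young library at 33.5 and a highest midlife library at 75.9. The part of haemocytes, gut tissue or other cells in the changes of the PGRP genes was not tested.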

How the data were processed

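Male heads were sequenced as polyadenylated RNA, with single reads of 50 bases. Per the submitters' processing notes TopHat2 2.0.5, edgeR (no version given) and build BDGP5 were used; the read counter is not given in the sources used here, nor are the annotation and any low-count filter. What the authors deposited are normalized counts (treated as signal), scaled by them to one library size. Counts could not be recovered: in each library 7.03% to 84.4% of low values were whole multiples of a fitted step (tolerance 0.02), so no count model was run, and depth is unknown.

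Columns show a group but are not tied to single listed samples, so libraries carry their column names. Values were taken as log2(value + 14.48), an addend of 0.5 CPM at the mean column total, and log2 changes understate those of low genes. A filter of 1 CPM in at least 4 libraries removed 0 genes. The fit had one mean per group over the 20 libraries, in limma 3.58.1 under R 4.3.3 (empirical Bayes, mean trend), with two-sided Benjamini-Hochberg adjusted p values over 9831 genes in each of 5 comparisons. The code was tested on simulated data.

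The PGRP genes, the gene lists, the markers and the tests were chosen with earlier results of these data known. All PGRP genes are described. Beyond them are named chm and up to 3 called members of each list, those with the smallest p in wild type. Also named are the genes most like each PGRP gene called in wild type, all 5 for PGRP-SA and PGRP-SC2 and only the first ones for the rest. Lsp2, CG7492, UGP and betaTub85D were named after their values were seen. Gene lengths and neighbours come from a reference annotation of a later build (BDGP6), so no coordinates are given, and no sequences were used.

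Column numbers repeat between ages. Deviations of same-numbered libraries from their group means, correlated over genes, gave r of -0.533 to 0.352 in wild type and 0.165 to 0.635 in chm/+. In chm/+ each of 4 pairs exceeded 0.1 and the number was taken as a block. In wild type not all pairs did, and whether the numbers pair libraries there is unknown. All 4 chm/+ pairs, and no wild-type pair, also share a column set, so pairing and column set cannot be told apart in either genotype. That block rests on these 4 pairs, and CHMo5, CHMy1 and CHMy4 add nothing to it. Alternatives were other scalings, addends, filters, weights, priors, fits to the compared groups only, column sets, the block and leaving out each library. Settings without CHMo12 and 2uy3 together, and without CHMo12, CHMy2 and 2uo2 together, were chosen after seeing the data.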

Additional observations from a re-analysis of the deposited data

Results flagged for a closer look

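PGRP-SC2 in the young wild-type library 2uy3 stood at 528 normalized counts, where the other 4 libraries of that group ran from 89.3 to 138, a gap of 0.89 of the group's range. PGRP-LC in the young chm/+ library CHMy1 stood at 2728, where the other 5 ran from 2220.2 to 2319.5, a gap of 0.804 of the range. Both were picked out as a sample far from the others of its group, from 36 groups of libraries examined, and chance picks about 1 in 20 such groups. The antimicrobial peptide genes were also highest in 2uy3 among young wild type, and the part of either library's state in these values was not tested.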

How the results depend on the processing

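Of the 9 PGRP genes, 6 were called with age in wild type and 7 in chm/+. With the second column set alone both counts were 3, where fewer libraries entered the fit. Leaving out each library in turn gave 4 to 7 in wild type (4 without 2uo5 or 2uy1) and 5 to 7 in chm/+ (5 without CHMo2, CHMo3, CHMy4 or CHMo11). With a replicate block the count was 5 in chm/+ and 0 for the difference of age changes. It was 6 in wild type, with PGRP-LB (limma adjusted p = 0.0413) called in place of PGRP-LC (adjusted p = 0.121). There same-numbered libraries share no column set, and 2uy3, having no partner, adds nothing to the estimate. The block was not run for the genotype comparisons, since column numbers are nested in genotype. Without CHMo12 and 2uy3 the counts were 7 and 7, and without CHMo12, CHMy2 and 2uo2 they were 6 and 7. Between genotypes in young flies the count was 2 with array weights (PGRP-LA and PGRP-LF) and 0 elsewhere. Between genotypes at midlife it was 1 (PGRP-SA) with quantile normalization, equal column totals, an addend of 2 CPM, array weights, the column set as a term or the first set alone, and 0 to 1 on leaving out each library. Over all settings the count of raised genes ran from 3 to 16 in wild type and 2 to 7 in chm/+ for the Toll list, 2 to 7 and 2 to 5 for the Imd list, and 4 to 14 and 9 to 14 for antimicrobial peptides. The cause of these shifts was not tested.

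Of 45 log2 changes of PGRP genes 13 turned sign under some setting, and 0 of these were called. In the first column set alone PGRP-LA with age in chm/+ was 0.040, PGRP-LE with age in wild type 0.070, PGRP-LC in the difference of age changes 0.16, and, between genotypes in young flies, PGRP-LB 0.062 and PGRP-SB1 0.23. In the second set alone PGRP-LA in the difference was -0.085, PGRP-LB and PGRP-LC between genotypes at midlife -0.13 and -0.012, and PGRP-SC2 in young flies 0.032. With array weights PGRP-LC and PGRP-SC2 in the difference were 0.050 and 0.31, PGRP-LE with age in wild type 0.048 and PGRP-SA between genotypes in young flies -0.16. With equal column totals PGRP-LB between genotypes at midlife was -0.030. Without CHMo12 and 2uy3 PGRP-LA in the difference was -0.0043, PGRP-SB1 and PGRP-SC2 in young flies 0.13 and 0.21 and PGRP-SC2 at midlife 0.10. Without CHMo12, CHMy2 and 2uo2 PGRP-LA and PGRP-SC2 in the difference were -0.057 and 0.073, and PGRP-LE with age in wild type 0.059.

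On leaving out each library the difference of age changes ran from -0.027 to 0.061 for PGRP-LA, -0.13 to 0.0068 for PGRP-LC and -0.67 to 0.31 for PGRP-SC2. The genotype difference at midlife ran from -0.087 to 0.18 for PGRP-LB, -0.078 to 0.27 for PGRP-SD and -0.77 to 0.10 for PGRP-SC2. In young flies it ran from -0.30 to 0.13 for PGRP-SB1 and -0.39 to 0.21 for PGRP-SC2, and PGRP-LE with age in wild type from -0.067 to 0.059. Depth is unknown, so counting error could not be separated from the spread between libraries.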
